A study of Mus musculus with 16 samples.

Results

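The genes described here encode the ligands and receptors that steer growing axons: semaphorins with their plexin and neuropilin receptors, ephrins with their Eph receptors, Slits with Robo receptors, and netrins with DCC, UNC5 and the netrin-G proteins. They were chosen by gene symbol alone, as every probe set that the platform annotation pairs with 1 symbol beginning with one of these family names, and Neo1 was left out by the rule. This gave 71 genes of the 18194 genes with such a probe set, measured by 160 probe sets. Of the 71 genes, 68 encode family members, and 3 share only the letters of the name: Unc50, Unc5cl and Plxna4os1. Hippocampal RNA of male mice aged 2 months was hybridised to 16 Affymetrix arrays, 4 for each of 4 genotypes. WT is labelled wild type, APPKO carries APP-/-, APLP2KO carries APLP2-/-, and N-dCKO carries APP-/- together with APLP2-/-, and all share 1 strain label. The series title calls the double knockout neuronal and conditional, so other cells of those animals may keep both genes. The labels do not name the promoter that drove the recombination, and nothing states that the 4 samples of a genotype come from different mice. The p-values therefore cover the spread from sample to sample only, and part of it may be technical.

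Semaphorins are secreted or membrane-bound proteins that mostly repel axons, and plexins are their signalling receptors. Class 3 semaphorins are secreted, and most of them bind plexins of the A type through neuropilins. Ephrins are held on the cell surface and bind Eph receptor kinases, with signals that run into both cells. Slits are secreted repellents read by Robo receptors. Netrin-1 attracts axons through DCC and repels them through UNC5, while the netrin-G proteins are anchored to axons and bind partners on dendrites. In the adult hippocampus many of these genes stay active in neurons, where they are known for the upkeep of spines and synapses, and several are also known from oligodendrocytes, blood vessels or microglia. APP and APLP2, the proteins lost here, are membrane proteins of neurons, and APP has been described as a binding partner of netrin-1.

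The targeted genes were low in the groups whose labels name them. The App probe set kept 13.6% of the WT signal in APPKO and 11.8% in N-dCKO, and the Aplp2 probe set kept 19.4% in APLP2KO and 16.7% in N-dCKO. Each of these was an exact two-sided permutation p of 0.0286, the smallest that 4 against 4 arrays can give. Median signals ran from 79.7 to 102 per array. The Gapdh 3'/5' ratio, which rises as RNA degrades, was 0.752 to 0.786 in WT, 0.745 to 0.806 in APPKO, 0.741 to 0.817 in APLP2KO and 0.797 to 0.834 in N-dCKO, so that all N-dCKO arrays lay above all WT arrays. Neuronal markers (4 of 4 tested) and the listed markers of dentate granule and CA3 neurons were above the filter on low signals. Drd2 and Adora2a of the striatum list were below it. In bulk tissue, fewer cells of a type and less RNA per cell cannot be told apart.

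The 250 bases before the RefSeq start (GRCm38.p6) are printed for 3 members that the results below turn on: Sema4g, the 1 member called against WT, Plxnb3, which was lower on every array without App, and Unc5c, which was higher on most arrays without Aplp2. Capitals mark the hexamer ACAAAG, the core bound by SOX factors, or GGGCGG, the GC box, on either strand. The windows are chr19:44989094-44989343 on the plus strand for Sema4g, chrX:73756853-73757102 on the plus strand for Plxnb3 and chr3:141465314-141465563 on the plus strand for Unc5c.
Sema4g: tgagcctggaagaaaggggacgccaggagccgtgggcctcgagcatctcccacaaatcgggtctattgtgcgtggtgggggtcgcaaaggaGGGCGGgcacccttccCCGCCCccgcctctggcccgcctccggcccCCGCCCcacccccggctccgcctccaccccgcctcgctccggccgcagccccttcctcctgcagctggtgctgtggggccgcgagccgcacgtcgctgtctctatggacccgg
Plxnb3: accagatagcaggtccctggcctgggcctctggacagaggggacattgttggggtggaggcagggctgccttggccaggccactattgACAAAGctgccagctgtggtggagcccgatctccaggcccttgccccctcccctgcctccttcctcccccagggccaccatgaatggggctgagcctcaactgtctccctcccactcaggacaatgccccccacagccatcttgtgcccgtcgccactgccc
Unc5c: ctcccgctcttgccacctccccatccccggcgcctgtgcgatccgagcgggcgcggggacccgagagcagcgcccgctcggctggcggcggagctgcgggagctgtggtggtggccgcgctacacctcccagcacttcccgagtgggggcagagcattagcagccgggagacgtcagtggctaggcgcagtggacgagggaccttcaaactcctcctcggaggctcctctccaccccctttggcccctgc
Sema4g held 3 GC boxes and no ACAAAG, Plxnb3 held 1 ACAAAG and no GC box, and Unc5c held neither. The table gave 76 starts for 60 of the 71 members. GGGCGG was found in 72.4% of these windows, against 32.7% of the 32851 windows of all genes, and ACAAAG in 10.5% against 16.5%. CpG pairs numbered 24 in the Sema4g window, 23 in that of Unc5c and 3 in that of Plxnb3, with a median of 15.5 over members and 6 over all windows. A match is a string of letters and no measured binding site.

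A filter on low signals, set at the median of mean log2 signal over all probe sets (a signal of 88.2), was passed by 60 members with 108 probe sets, and 11 members were not tested. A gene with several probe sets is represented by its brightest one. Robo3 and Sema6c lay just above the filter at mean log2 values of 6.83 and 6.84, and Robo2 and Efna4 just below it at 6.19 and 6.09. Differences are given as log2 fold changes of signal plus 9, with their SE from a limma fit to all 16 arrays, and a gene is called when its Benjamini-Hochberg adjusted p over 11664 genes is below 0.05. The added 9 understates the fold changes of dim genes. Levels of different probe sets are not compared with each other, since each binds its RNA differently.

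Few of these genes differed between the genotypes by more than the arrays of a group differed from each other. In APPKO against WT, limma called 0 of 60 members (0.00857% of all tested genes were called), and 9 had an unadjusted p below 0.05 (5 higher and 4 lower, 15% of members against 5.18% of all genes). In APLP2KO against WT it called 0 of 60 (0.129% of all genes), with 8 at an unadjusted p below 0.05 (6 higher and 2 lower, 13.3% against 7.44%). In N-dCKO against WT it called 1 of 60, Sema4g, which was higher (0.943% of all genes were called, 0.249% as higher), with 15 at an unadjusted p below 0.05 (10 higher and 5 lower, 25% against 12%). The 4 arrays of a knockout group lay wholly above or below the 4 WT arrays for 3 members in APPKO (5%, against 2.63% of all genes), 6 in APLP2KO (10%, against 4.4%) and 5 in N-dCKO (8.33%, against 7.36%). In APPKO 1 of these lay higher and 2 lower (1.06% and 1.57% of all genes), in APLP2KO 4 higher and 2 lower (1.71% and 2.69%), and in N-dCKO 4 higher and 1 lower (2.9% and 4.46%). Robo3, whose WT mean is below the filter, is among the higher ones in all 3 and is the 1 in APPKO. These 3 comparisons share the WT arrays, and their values are set side by side without a test of likeness.

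Most sizes were small as well. The 95% interval of the log2 fold change lay within 0.5 on either side of 0 for most members. This held for 46 of 60 in APPKO (76.7%), 49 in APLP2KO (81.7%) and 44 in N-dCKO (73.3%) against WT. The share was lower than among all tested genes, at 85.7%, 85.2% and 82.6%. The median log2 fold change of the members was 0.02, 0.05 and 0.07 in the same order, against -0.00381, -0.00807 and -0.00407 over all genes. Positive values were found for 33, 38 and 40 members (55%, 63.3% and 66.7%), against 48.3%, 46.7% and 48.7% of all genes. With each array centred on its median, the median of all genes moved to -0.10, -0.09 and -0.09. The positive members then numbered 18, 25 and 29 of 60, while 16.8%, 22.5% and 23.8% of all genes were positive. The median of the members minus that of all genes was 0.02, 0.06 and 0.07 with and without this centring. Centring shifts every gene of a comparison by the same amount, so this difference could not change and is no check of the scaling. With quantile normalization the positive members numbered 37, 42 and 40 of 60, while 49.5%, 47.6% and 48.8% of all genes were positive. Of the 31 members with more than 1 probe set above the filter, all those probe sets shared 1 sign in 18 for APPKO, 14 for APLP2KO and 19 for N-dCKO against WT. Under median centring the 110 genes called in N-dCKO against WT, 29 higher and 81 lower, became 2 higher and 148 lower.

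**Figure D1:**
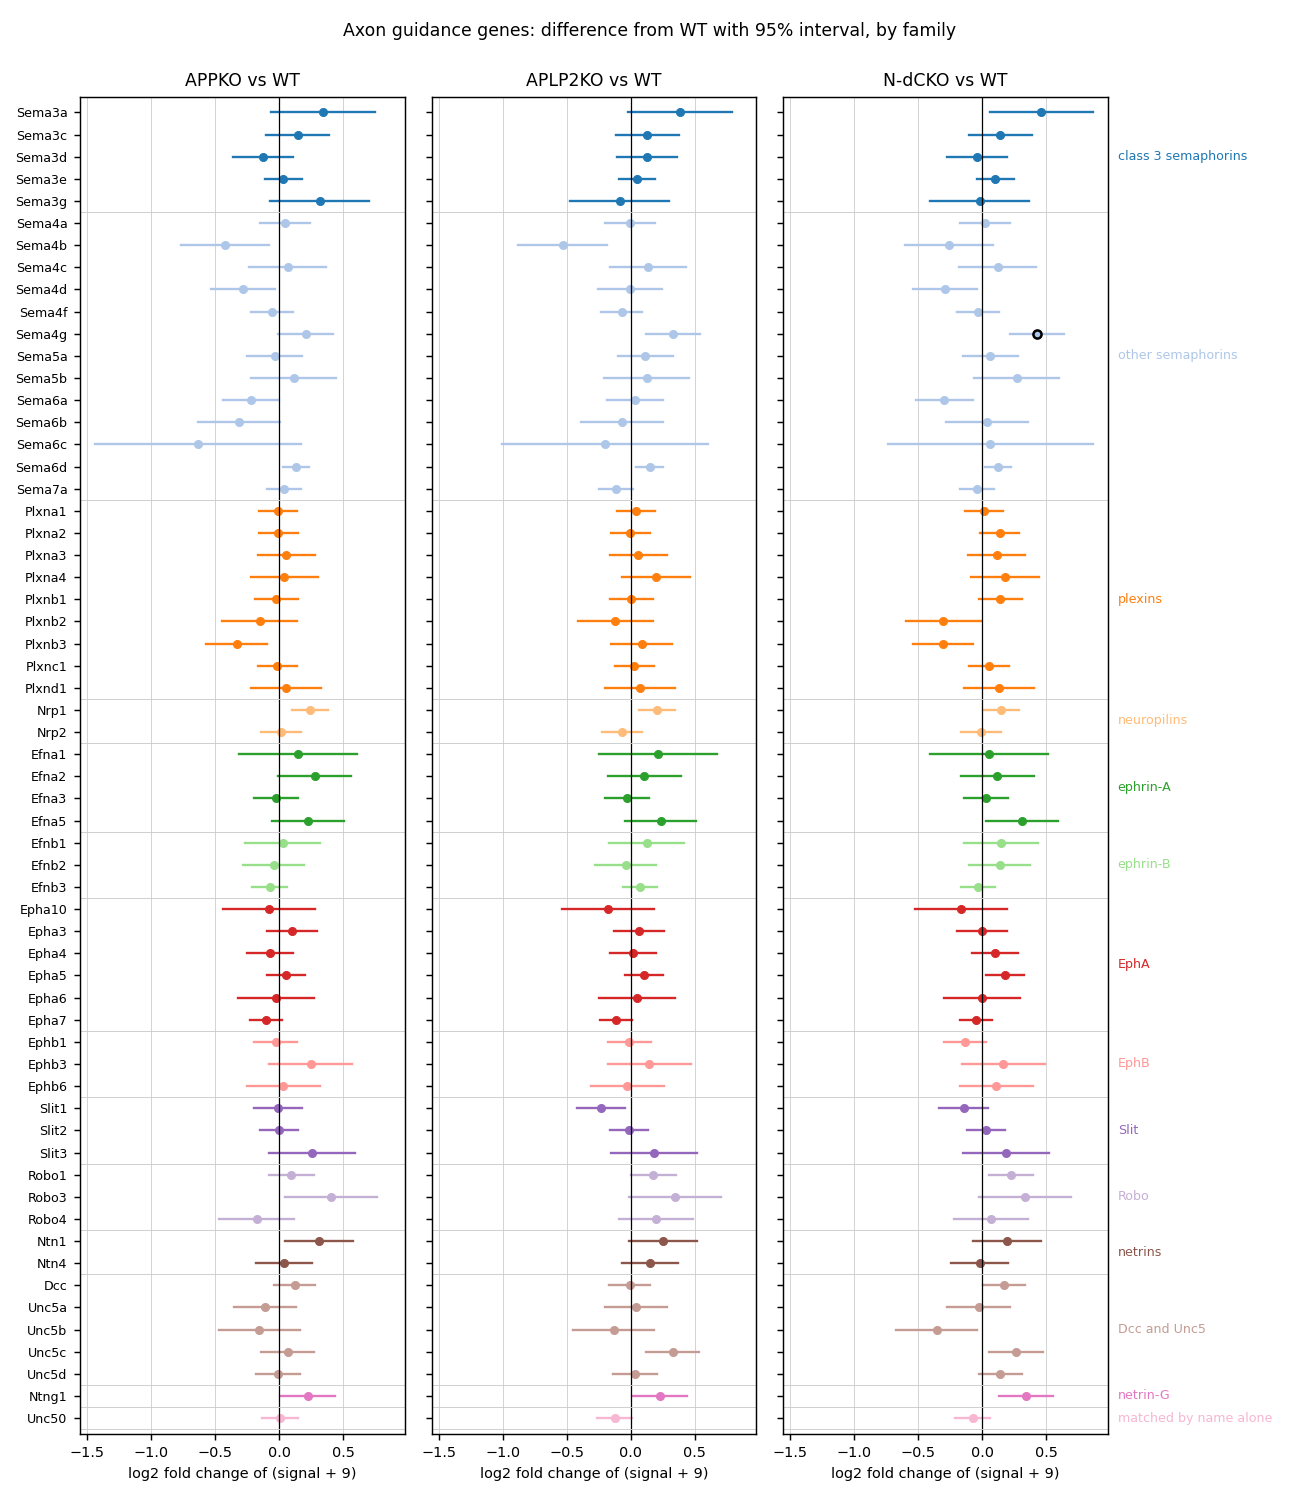
Log2 fold change of signal plus 9 for the 60 tested members against WT, 1 panel per knockout group, with genes grouped and coloured by family, points for the estimate and lines for the 95% interval. The point ringed in black is Sema4g in N-dCKO, the 1 member with an adjusted p below 0.05, and most intervals cross 0.

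Among the transmembrane semaphorins, Sema4g differed most clearly. It encodes a class 4 semaphorin. Its signal was 361, 322, 366 and 444 on WT arrays 1 to 4, and 531, 489, 522 and 469 on N-dCKO arrays 1 to 4. It was 387, 414, 425 and 500 in APPKO and 494, 432, 451 and 502 in APLP2KO. All N-dCKO arrays lay above all WT arrays, whereas the single knockouts overlapped with WT through WT array 4. Sema4g rose by 0.43 ± 0.10 on the log2 scale in N-dCKO against WT (limma adjusted p = 0.0498), and the fold changes in APPKO and APLP2KO were 0.21 ± 0.10 and 0.33 ± 0.10 (limma adjusted p = 0.937 and 0.382). The call is on the threshold: it was kept in 2 of 13 other settings, the replicate block and the mean over probe sets, and in 1 of 8 fits without 1 array, that without WT array 4. The adjusted p over these 21 fits ran from 0.0179 to 0.649, with log2 fold changes between 0.34 and 0.51. The Gapdh 3'/5' ratio, higher on all N-dCKO arrays than on all WT arrays, moved with this group: with the ratio as a covariate the fold change was 0.37 ± 0.13 (limma adjusted p = 0.387), and its part in the difference was not tested further. Averaged over both backgrounds, the 8 arrays without Aplp2 read 0.28 ± 0.07 above the 8 with it (limma adjusted p = 0.0842).

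Sema4b and Sema6d, further transmembrane semaphorins, differed from WT in both single knockouts at an unadjusted p below 0.05 but were not called. Sema4b read 423, 305, 377 and 331 in WT, 278, 225, 343 and 223 in APPKO, 191, 293, 203 and 310 in APLP2KO and 355, 270, 286 and 282 in N-dCKO. The groups overlap, and APLP2KO arrays 1 and 3 were the lowest. Its log2 fold changes were -0.42 ± 0.17, -0.53 ± 0.17 and -0.26 ± 0.17 (limma adjusted p = 0.903, 0.393 and 0.573). Sema6d read 3295, 3284, 3537 and 3699 in WT and 3739 to 3880 in APLP2KO, which did not overlap. Its fold changes were 0.13 ± 0.05, 0.15 ± 0.05 and 0.12 ± 0.05 in the 3 groups (limma adjusted p = 0.903, 0.427 and 0.312), and its other probe set above the filter gave 0.24, 0.24 and 0.44. Sema6b had group means of 380 in WT, 302 in APPKO, 359 in APLP2KO and 394 in N-dCKO. Sema6c had the widest interval of any member, with signals from 31.5 to 205 and a log2 fold change of -0.64 in APPKO. Sema5b read 116, 118, 90.3 and 118 in WT and 120 to 154 in N-dCKO, and these did not overlap (0.27 ± 0.16, limma adjusted p = 0.536). Sema7a, a semaphorin anchored to the membrane by a lipid, had group means between 1309 and 1456, and Sema4a, Sema4c, Sema4f and Sema5a had log2 fold changes between -0.07 and 0.13 in the 3 comparisons with WT.

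Of the secreted class 3 semaphorins, 5 of 7 were tested, and none was called. Sema3a, a repellent of hippocampal axons, read 179, 149, 99.8 and 180 in WT and 260, 232, 176 and 174 in N-dCKO. The groups overlap, and WT array 3 was the lowest of all 16. Its log2 fold changes were 0.34 ± 0.19 in APPKO, 0.39 ± 0.19 in APLP2KO and 0.46 ± 0.19 in N-dCKO (limma adjusted p = 0.998, 0.703 and 0.332). Sema3c and Sema3e, both with bright probe sets, had WT means of 2059 ± 289 and 2178 ± 194 (SD, n = 4), and log2 fold changes between 0.03 and 0.14 in all 3 groups. Sema3d and Sema3g ranged from -0.12 to 0.32.

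Plxnb3, a receptor of class 5 semaphorins known from oligodendrocytes, was lower wherever App was lost. It read 839, 992, 812 and 805 in WT and 921, 901, 883 and 943 in APLP2KO, against 492, 790, 785 and 700 in APPKO and 659, 695, 685 and 736 in N-dCKO. All 8 arrays without App lay below all 8 arrays with it, which held for 1 of 60 members (1.67%) and for 0.0686% of all tested genes, 0.06% in the same direction. The difference averaged over both backgrounds was -0.36 ± 0.08 (limma adjusted p = 0.0820), and it was -0.33 ± 0.11 in APPKO, -0.31 ± 0.11 in N-dCKO and 0.08 ± 0.11 in APLP2KO against WT (limma adjusted p = 0.826, 0.252 and 0.911). Without APPKO array 2, the value averaged over both backgrounds was -0.40 and was called (limma adjusted p = 0.0201). The gene's other probe set gave -0.18 for the same average.

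Sema4d and Sema6a, transmembrane semaphorins that oligodendrocytes also make, had differences of the same sign. Sema4d read 677, 742, 966 and 708 in WT, 481, 711, 693 and 653 in APPKO, 732, 794, 756 and 775 in APLP2KO and 538, 633, 633 and 707 in N-dCKO. N-dCKO lay below APLP2KO on every array, and APPKO overlapped with WT. Averaged over both backgrounds, Sema4d was at -0.29 ± 0.08 and Sema6a at -0.28 ± 0.07 without App (limma adjusted p = 0.200 and 0.130). The other Sema4d probe set above the filter gave 0.02, so its probe sets disagree. Sema6a read 427 to 537 in WT, 359 to 440 in APPKO, 429 to 553 in APLP2KO and 331 to 432 in N-dCKO. In this comparison 0 of 60 members were called (0.0171% of all genes), with 6 at an unadjusted p below 0.05 (10%, against 9.16%).

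The oligodendrocyte and myelin list moved with these values. All 11 tested genes of the list had negative log2 fold changes in APPKO and in N-dCKO against WT, with a median of -0.52 in each, and 8 of 11 were negative in APLP2KO, with a median of -0.07. The summed signal of the list was 94514 to 118417 in WT, 95828 to 106924 in APLP2KO, 70271 to 107468 in APPKO and 69722 to 86750 in N-dCKO. APPKO array 2, with a mean log2 level of 12.66, lay within the WT range of 12.43 to 12.86, and the other APPKO arrays lay at 11.81 to 12.13. With the mean of the list as a covariate, a fit added after seeing the data, the averaged difference was -0.14 ± 0.10 for Plxnb3, -0.07 ± 0.11 for Sema4d and -0.11 ± 0.10 for Sema6a, none of them called (limma adjusted p = 0.885, 0.973 and 0.928). Whether the list has a part in these differences was not tested further.

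**Figure D2:**
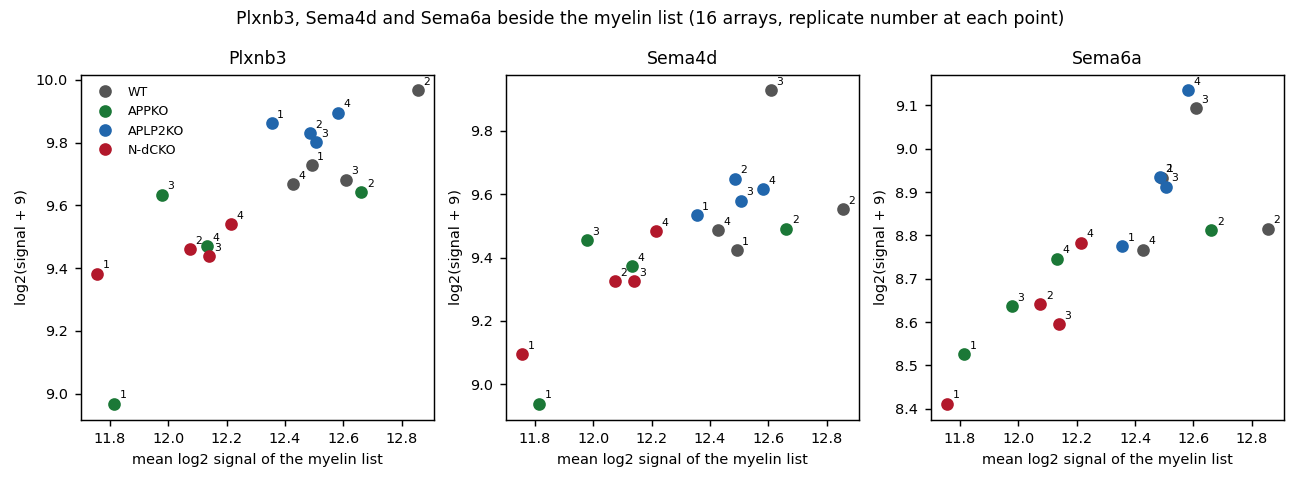
Each panel plots log2 of signal plus 9 of 1 gene (Plxnb3, Sema4d or Sema6a) against the mean log2 signal of the myelin list on the same array, with 16 points coloured by genotype and numbered by replicate. Array 1 of APPKO and array 1 of N-dCKO sit lowest on both axes, and APPKO array 2 sits among the WT arrays on the horizontal axis.

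The other plexins varied little. Plxna2, a receptor subunit of class 3 and class 6 semaphorins, read 1203 to 1331 in WT and 1316 to 1518 in N-dCKO (0.14 in N-dCKO against APPKO, where all N-dCKO arrays were higher; limma adjusted p = 0.670). Plxnb1, which binds Sema4d, read 650 to 717 in WT and 720 to 834 in N-dCKO. These groups did not overlap, at 0.14 ± 0.08 (limma adjusted p = 0.521). Plxnb2 read 479 to 664 in WT and 349 to 543 in N-dCKO (-0.31 ± 0.14, limma adjusted p = 0.395). The summed signal of the microglia list, whose 11 tested genes had negative fold changes in each knockout against WT, was 15702 to 16399 in WT and 12284 to 13117 in N-dCKO, and its part in the Plxnb2 value was not tested. Plxna1, Plxna3, Plxna4, Plxnc1 and Plxnd1 had log2 fold changes between -0.02 and 0.20 in the 3 comparisons.

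Nrp1, the neuropilin that pairs with plexins in the Sema3a receptor, had the smallest unadjusted p of all members in APPKO against WT. It read 3181, 3654, 3322 and 3545 in WT, 3528, 4080, 4431 and 4190 in APPKO, 3945, 3748, 3925 and 4176 in APLP2KO and 3774, 3662, 3589 and 4128 in N-dCKO. APLP2KO lay wholly above WT, and the other groups overlapped with it. The log2 fold changes were 0.24 ± 0.07, 0.21 ± 0.07 and 0.14 ± 0.07 (limma adjusted p = 0.826, 0.423 and 0.399). The other 3 Nrp1 probe sets above the filter did not all share the sign of the N-dCKO value, at -0.01, -0.05 and 0.33. The interaction of both losses, which measures the departure of N-dCKO from the sum of the single losses, was -0.30 ± 0.10 for Nrp1 and 0.70 ± 0.23 for Sema4b. By limma it was called for 0 of 60 members (0% of all genes), with 3 at an unadjusted p below 0.05 (5%, against 4.15%). Nrp2, a neuropilin that class 3 semaphorins also use, had group means between 1070 and 1132, and its log2 fold change in APLP2KO was -0.07. The other Nrp2 probe sets above the filter gave 0.27 ± 0.10 and 0.12 ± 0.12 there (exact two-sided permutation p = 0.0286 and 0.429), so the probe sets disagree.

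**Figure D3:**
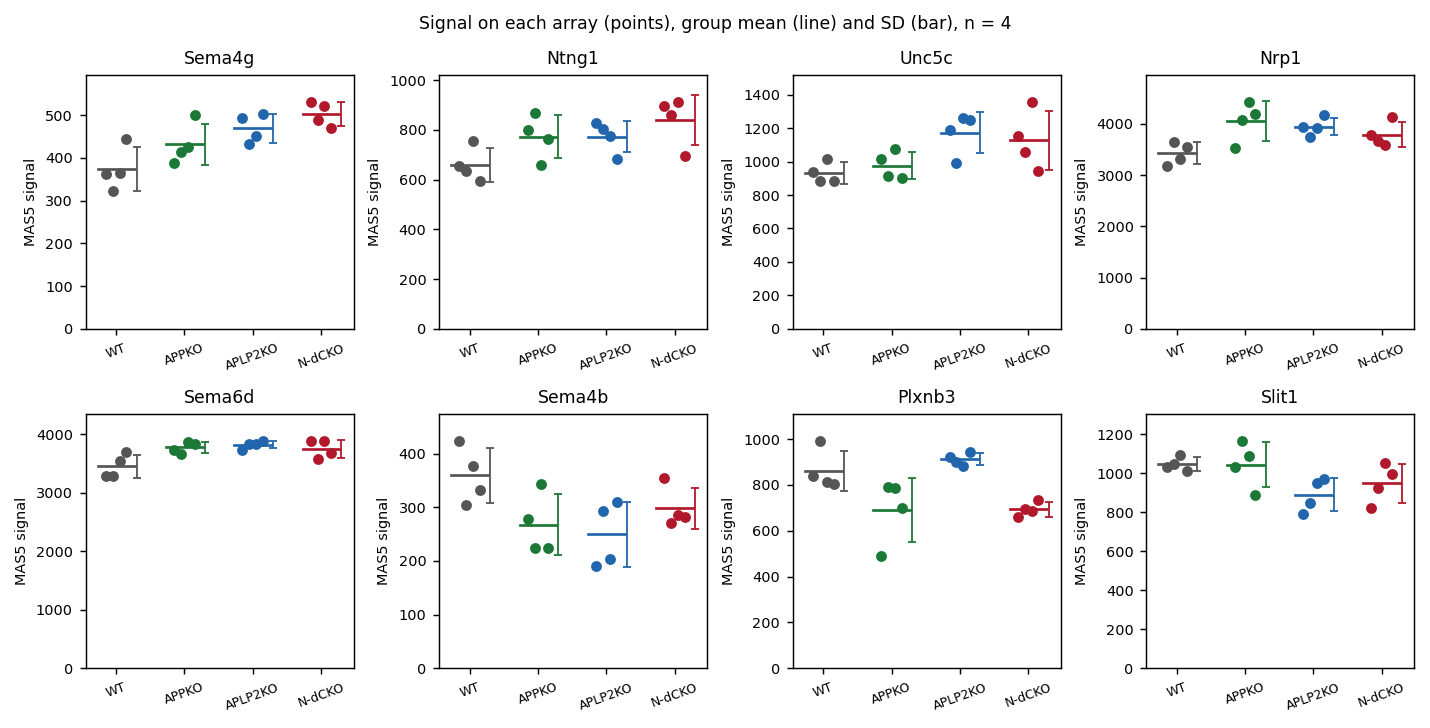
MAS5 signal of 8 members on every array, with points for arrays, a line for the group mean and a bar for the SD (n = 4), and axes that start at 0. Sema4g is higher in N-dCKO (469 to 531) than in WT (322 to 444) without overlap, and Plxnb3 is lower in APPKO and N-dCKO than in WT and APLP2KO.

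No ephrin or Eph receptor was called in any of the 8 comparisons by limma, and in N-dCKO against WT 2 of the 16 tested had an unadjusted p below 0.05, Efna5 and Epha5 (12.5%, against 12% of all genes). Efna5, an ephrin that guides hippocampal projections, had log2 fold changes of 0.23 ± 0.13 in APPKO and in APLP2KO and 0.31 ± 0.13 in N-dCKO (limma adjusted p = 0.977, 0.748 and 0.358). It read 301, 269, 291 and 268 in WT and 366, 319, 324 and 324 in APLP2KO, which did not overlap. Efna2 was at 0.28 ± 0.14 in APPKO (limma adjusted p = 0.937), and Efna1 and Efna3 ranged from -0.03 to 0.21 in the 3 comparisons. Efnb2 and Efnb3, ephrins of the transmembrane type, read 1426 to 1605 and 2068 to 2310 in WT, with log2 fold changes between -0.08 and 0.14. Of 9 tested Eph receptors, Epha7 lay lower on all arrays of both single knockouts (2081 to 2263 in APPKO, 2001 to 2253 in APLP2KO) than on the WT arrays (2264 to 2372), yet overlapped with WT in N-dCKO (2106 to 2441). Its fold changes were -0.10, -0.12 and -0.05, each ± 0.06. Epha5, a receptor of ephrin-A5, read 2648 to 3053 in WT and 2989 to 3405 in N-dCKO (0.18 ± 0.07, limma adjusted p = 0.306), and the other 3 probe sets above the filter gave 0.10, 0.08 and -0.00141. With the myelin list mean as a covariate the Epha5 value turned to -0.0155. Epha4, a receptor on pyramidal cell spines, had group means between 4508 and 5075. Ephb1, a receptor of the transmembrane ephrins, read 870 ± 36.0 in WT and 795 in N-dCKO (-0.14 ± 0.08), and Ephb3 and Ephb6 ranged from -0.03 to 0.25.

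Slit1, a repellent, and its receptor Robo1 had differences of opposite sign without Aplp2, and neither was called. Slit1 read 1033, 1048, 1096 and 1013 in WT and 793, 849, 949 and 974 in APLP2KO, with no overlap. It read 891 to 1166 in APPKO and 821 to 1054 in N-dCKO, and both overlapped with WT. The difference averaged over both backgrounds was -0.19 ± 0.06 (limma adjusted p = 0.242), and its other probe set gave -0.10. Robo1 read 1557, 1497, 1230 and 1298 in WT and 1783, 1593, 1613 and 1519 in N-dCKO, which overlapped, and was at 0.15 ± 0.06 averaged over both backgrounds (limma adjusted p = 0.331), with 0.10 on its other probe set. Slit2 and Slit3 had log2 fold changes between -0.01 and 0.25 against WT.

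All 4 Robo genes lie on the chromosomes of the deleted genes. Robo3 and Robo4 are within 10 Mb of Aplp2 on chromosome 9, and Robo1 and Robo2 are within 20 Mb of App on chromosome 16. Robo3 read 78.8 to 89.7 in WT and lay higher on all arrays of APPKO (90.002 to 147), APLP2KO (92.02 to 140) and N-dCKO (95.5 to 118). Its log2 fold changes were 0.41 ± 0.17, 0.35 ± 0.17 and 0.34 ± 0.17, (limma adjusted p = 0.920, 0.693 and 0.457). Its WT mean of 85.0 is below the filter, which Robo3 passed only through the knockout groups where it is high, so its place among the tested members, and among those whose arrays do not overlap with WT, supports nothing. Robo4, known from blood vessels, was at 0.22 ± 0.10 averaged over both backgrounds without Aplp2 (limma adjusted p = 0.430), with 163 to 196 in WT and 181 to 258 in APLP2KO. Robo2 read 37.4 to 108 over all arrays and was not tested. With a window of 40 Mb, Epha3, Epha6 and Sema7a are near a deleted gene too, and the averaged log2 difference without that gene was 0.01, -0.04 and -0.10.

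**Figure D4:**
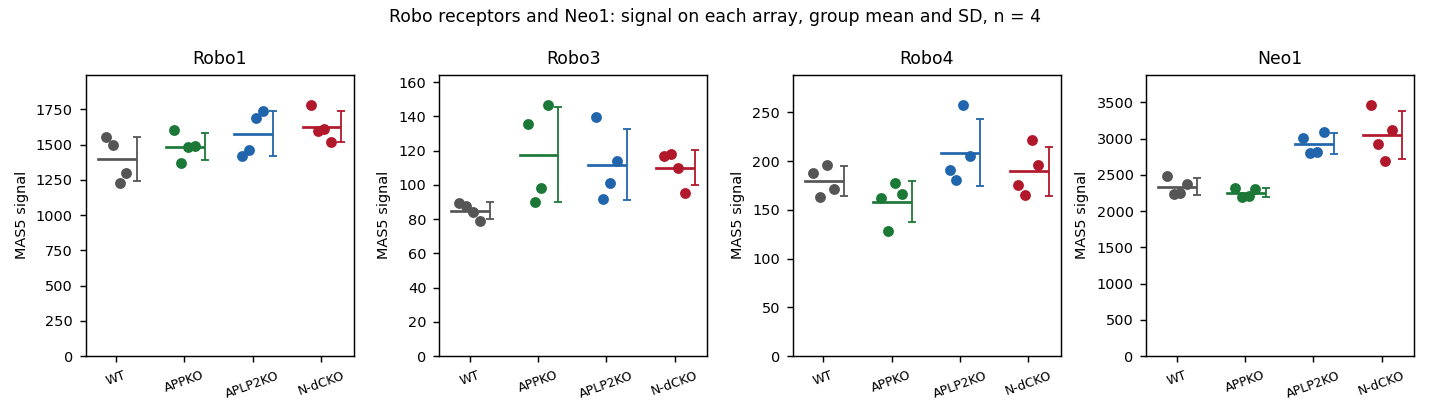
MAS5 signal of Robo1, Robo3, Robo4 and Neo1 on every array, with points for arrays, a line for the group mean and a bar for the SD (n = 4), and axes that start at 0. Neo1 is higher in APLP2KO and N-dCKO than in WT and APPKO without overlap, and Robo3 is lowest in WT.

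Among the netrin genes, Ntng1, whose product netrin-G1 marks axon terminals, was next to Sema4g in N-dCKO. It read 656, 633, 756 and 596 in WT, 799, 867, 660 and 764 in APPKO, 829.1, 803, 776 and 683 in APLP2KO and 897, 860, 913 and 695 in N-dCKO. All groups overlap, and N-dCKO array 4 was the lowest of its group. The fold changes were 0.22 ± 0.10, 0.23 ± 0.10 and 0.34 ± 0.10 (limma adjusted p = 0.926, 0.632 and 0.116). Without N-dCKO array 4 the value was 0.43, which was called (limma adjusted p = 0.0419). Netrin-1 (Ntn1), the ligand, had a mean of 194 ± 27.3 in WT and 243 in APPKO (0.31 ± 0.13, limma adjusted p = 0.920), and Ntn4 had group means between 374 and 420.

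Of the netrin receptors, Unc5c, which mediates repulsion, had the smallest unadjusted p of all members in APLP2KO against WT. It read 940, 884, 1018 and 881 in WT, 1012, 912, 1076 and 904 in APPKO, 1190, 993, 1258 and 1251 in APLP2KO and 1153, 1057, 1357 and 944 in N-dCKO. APLP2KO array 2 and N-dCKO array 4 lay within the WT range and the other 6 arrays without Aplp2 above it. The log2 fold change was 0.33 ± 0.10 in APLP2KO and 0.26 ± 0.10 in N-dCKO (limma adjusted p = 0.369 and 0.269), and 0.26 ± 0.07 averaged over both backgrounds (limma adjusted p = 0.0970). Without APLP2KO array 2 or N-dCKO array 4 this average was 0.30 and was called (limma adjusted p = 0.0467 and 0.0354). The other Unc5c probe set gave -0.10, so the probe sets disagree. In this comparison 0 of 60 members were called by limma (0.917% of all genes), with 9 at an unadjusted p below 0.05 (15%, against 10.5%), and 0 had arrays that did not overlap (0.266% of all genes). Dcc, the attractive netrin receptor, read 1309 to 1569 in WT, 1407 to 1696 in APPKO, 1372 to 1542 in APLP2KO and 1465 to 1806 in N-dCKO, and was at 0.15 ± 0.05 averaged over both backgrounds without App (limma adjusted p = 0.373). With the myelin list mean as a covariate that value turned to -0.0114. Unc5b was at -0.36 ± 0.15 in N-dCKO against WT (limma adjusted p = 0.346), and Unc5a and Unc5d had log2 fold changes between -0.11 and 0.14.

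Setting N-dCKO against each single knockout called none of these genes. Against APPKO limma called 0 of 60 (0.352% of all genes), with 2 at an unadjusted p below 0.05 (3.33%, against 7.71%), and against APLP2KO 0 of 60 (0.0257% of all genes), with 4 (6.67%, against 8.44%). The arrays did not overlap for 2 members in each of these comparisons (3.33%, against 3.99% and 5.23% of all genes). Plxna2 and Epha4 lay higher in N-dCKO than in APPKO (1.95% of all genes did), and Plxnb3 and Sema4d lay lower in N-dCKO than in APLP2KO (2.98%). The smallest unadjusted p against APPKO was that of Sema6b (0.35 ± 0.15, limma adjusted p = 0.587).

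The 11 members that were not tested had mean signals below the filter. In the fit without a filter, Sema3b, a secreted semaphorin, read 109, 105, 61.0 and 53.6 in WT and 22.3, 55.2, 8.10 and 32.6 in N-dCKO (-1.34 ± 0.36, limma adjusted p = 0.122), with N-dCKO array 2 within the WT range. N-dCKO also had lower choroid plexus signal: all 12 tested genes of that list fell in N-dCKO against WT, and its mean log2 level was 5.58, 6.03, 8.48 and 6.08 on N-dCKO arrays 1 to 4, against 8.84 to 9.81 in WT. Its summed signal was 787 to 37211 in N-dCKO, 32538 to 37429 in WT, 33976 to 42256 in APPKO and 30946 to 39193 in APLP2KO. Whether the choroid plexus has a part in the Sema3b value was not tested. Epha8 read at most 55.7 in WT, 56.6 to 108 in APLP2KO and 58.6 to 94.7 in N-dCKO, without overlap with WT (1.05 ± 0.41 and 1.09 ± 0.41, limma adjusted p = 0.612 and 0.364). Efna4, Epha1, Epha2, Ephb4, Ntng2, Robo2, Sema3f, Unc5cl and Plxna4os1 had log2 fold changes between -0.72 and 0.57 against WT.

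Other genes of the pathway came from a list of 77 coreceptors, further ligands and signalling proteins, of which 73 were tested. In N-dCKO against WT limma called 2, both higher (0.943% of all genes were called, 0.249% as higher). An unadjusted p below 0.05 was found for 8 (11%, against 12% of all genes). In APPKO and APLP2KO limma called 0 (0.00857% and 0.129% of all genes), with 3 and 8 at an unadjusted p below 0.05 (4.11% and 11%, against 5.18% and 7.44% of all genes). Without Aplp2, averaged, it called 2, Neo1 and Limk1 (0.917% of all genes), and in N-dCKO against APPKO 1, Neo1 (0.352%). Neo1, the receptor related to DCC that binds netrins and RGM proteins, read 2480, 2235, 2254 and 2378 in WT and 2190 to 2320 in APPKO, against 2798 to 3091 in APLP2KO and 2692 to 3468 in N-dCKO. All 8 arrays without Aplp2 lay above all 8 with it. Neo1 rose by 0.38 ± 0.05 averaged over both backgrounds (limma adjusted p = 0.000191), a call that held in each fit without 1 array, and by 0.38 ± 0.07 in N-dCKO against WT (limma adjusted p = 0.00539). It was at 0.33 ± 0.07 in APLP2KO against WT (limma adjusted p = 0.0520) and at 0.43 ± 0.07 in N-dCKO against APPKO (limma adjusted p = 0.00627). Its other bright probe set gave 0.27 for the average, and 3 dim ones gave 0.68, -0.35 and -0.25. Neo1 lies on chromosome 9 within 40 Mb of Aplp2, outside the 20 Mb window. Limk1, a kinase that acts on cofilin downstream of semaphorin signals, rose by 0.39 ± 0.08 in N-dCKO against WT (limma adjusted p = 0.0250), from 539 to 593 in WT to 692 to 781, and lost the call without WT array 1, 2 or 3 or N-dCKO array 1 or 2, with adjusted p up to 0.0946. Its other probe set above the filter gave 0.17 ± 0.16 in the same comparison. Averaged over both backgrounds without Aplp2, Limk1 was at 0.26 ± 0.06 (limma adjusted p = 0.0377), and that other probe set gave 0.08. The averaged call was lost in most fits without 1 array, with limma adjusted p up to 0.0917. It was kept only without WT array 4, APLP2KO array 3 or N-dCKO array 4 (limma adjusted p = 0.0460, 0.0131 and 0.0354). L1cam, an adhesion protein of axons, was at 0.32 ± 0.08 (limma adjusted p = 0.0597). In APPKO the smallest unadjusted p were of Dpysl5 (0.29), Enah (0.17) and Draxin (0.40), and in APLP2KO, after Neo1, of Mical1 (0.64) and Dpysl5 (0.36). The WT mean of Mical1, 78.2, is below the filter, which this gene passed only through the knockout groups where it is high. Its place among the tested genes therefore supports nothing.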

How the data were processed

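RNA of 16 hippocampus samples was measured on Affymetrix mouse arrays. The authors deposited linear MAS5 intensity values, as the submitters' processing notes name MAS5; no version of it was found in the labels. All arrays carry the same trimmed mean of 500, and this scaling was kept. Members, lists and tests were chosen with earlier results of these data known. Of 45101 probe sets, 34958 had 1 gene symbol in the platform annotation. The scale is log2(signal + 9). Probe sets whose mean log2 signal reached the median, 6.60, were kept, and the brightest of each gene was used, which gave 11664 genes. The fit used limma 3.58.1 in R 4.3.3, 1 mean per group and a variance trend, with 12 residual and 19.4 moderated degrees of freedom. Tests were two-sided. The 8 comparisons were each knockout against WT, N-dCKO against each single knockout, the interaction, and each loss averaged over both backgrounds (8 arrays against 8). The averages mix the single knockouts with the conditional line. The fit was checked on simulated data. Genes named are App, Aplp2, called members, up to 10 members with the smallest unadjusted p against WT and up to 5 in other comparisons, members whose arrays do not overlap with WT, up to 3 bright members per family, members within 20 Mb of App or Aplp2, called pathway genes and up to 3 with the smallest p; the rest are given as ranges, and Sema3b, Epha8, Sema6c, Unc5b and Plxnb2 were named after their values were seen. Distances and promoter sequence come from RefSeq (GRCm38.p6), whose gene list held all 71 members. The number of arrays limits the precision.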

Additional observations from a re-analysis of the deposited data

Results flagged for a closer look

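Of 92 groups of 4 arrays checked for 23 named members, 2 had an array that stood apart, where chance alone gives about 1 in 20. Efna5 read 366 on APLP2KO array 1, against 319 to 324 on the other arrays of that group. Sema5b read 90.3 on WT array 3, against 116 to 118 on the other WT arrays.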

How the results depend on the processing

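The 61 named differences of members were recomputed under the alternatives, which gave 1297 values. Only 1 of the 61, Sema4g in N-dCKO against WT, was called in the main fit, and it lost the call in 18 of 21 values. The others were uncalled there, so their staying on that side of the threshold says little about stability. The direction and side of the threshold were kept in 1269, a call was lost in 18 (all of Sema4g in N-dCKO against WT), a call was gained in 8, and 2 changed sign, both with the myelin list mean as a covariate: Dcc without App, averaged (-0.0114), and Epha5 in N-dCKO against WT (-0.0155). The count of members called in N-dCKO against WT, 1 in the report, was 0 with quantile normalization, median centring, 4 times the pseudocount, no pseudocount, no filter, the 75th percentile filter, every probe set, no variance trend, only the groups compared, or the choroid plexus mean, the Gapdh ratio or the myelin list mean as a covariate (the last was added after seeing the data). Sema4g did not pass the 75th percentile filter and was not tested there. The count ran from 0 to 1 without 1 array, where it was 1 without WT array 4 (Sema4g) or N-dCKO array 4 (Ntng1). Over all genes, the 110 calls in N-dCKO against WT became 60 with the 75th percentile filter, 5, 23 and 15 with the choroid plexus, Gapdh and myelin covariates, and 45 to 115 without 1 array. Without App, averaged, the count went from 0 to 1 (Plxnb3, -0.36, limma adjusted p = 0.0315) with the replicate block, and from 0 to 1 over the fits without 1 array (1 without APPKO array 2), with 1 to 94 calls over all genes. Without Aplp2, averaged, it went from 0 to 1 (Unc5c, 0.26, limma adjusted p = 0.0179) with the replicate block, and from 0 to 1 without 1 array (Sema4g without WT array 4 or APPKO array 4, Unc5c without APLP2KO array 2 or N-dCKO array 4). The other 5 counts stayed at 0 in every fit run. Deviations of arrays with the same replicate number correlated between -0.02 and 0.30 (median 0.05), and those with different numbers between -0.20 and 0.17 (median -0.03). All 16 arrays correlated best with their own number, a hint from the data and not from the design. No label ties the numbers, so they are not taken as pairs in the main fit. The cause of these changes was not tested. Within 10 Mb of App or Aplp2 lie 2 members and within 40 Mb 7, against 4 within 20 Mb. Low signals limit the 11 dim members.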
